A study of Mus musculus with 32 samples.

Results

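The response of the mouse spinal cord to injury was measured 3 days after the lesion, as the difference in RNA levels between injured cords and cords that had a sham operation. The comparison took 6 of the 32 bulk RNA-seq libraries of the study, chosen by their labels: 3 from sham-operated cords and 3 from cords labelled as injured with a control treatment. All came from C57BL/6J mice aged 8 to 12 weeks, and no transgene or targeted allele is named for either group. The tissue was the parenchyma around the lesion, reaching about 2 to 3 mm to each side of it, snap-frozen before RNA was isolated. The wider study asks how Gsx1, a homeobox transcription factor, acts after such an injury, and holds groups with Gsx1 or Nkx6.1 and groups taken at 14 and 35 days, which are used here only to estimate the spread and, for 35 days, to set a later injury response beside that at 3 days. What the control treatment was is not given in the sources used here, and it is not named for the sham cords, so the lesion and the control treatment cannot be told apart; "injured" below means both. The method of injury is not given either, and the labels do not say whether all replicates of a group came from separate animals, so part of the spread behind every p-value may be technical.

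A spinal cord lesion tears vessels as well as axons, so blood enters the tissue, clots and breaks down. In the first days, neutrophils and then monocytes are drawn in by chemokines and cross an activated endothelium, and together with resident microglia they take up dead cells, myelin lipid and red cells. Astrocytes, microglia, vessel cells and fibroblasts divide and lay down matrix around the core of the lesion, while neurons near it die or lose synaptic and channel transcripts.

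Reads were counted per gene by the authors. A level is given as CPM, counts per 1000000 counts of a library, on a total scaled with edgeR's TMM factors, in the order of replicates 1, 2 and 3. A difference is edgeR's log2 fold change, injured over sham, with its standard error after the ± sign. A gene was called where edgeR's quasi-likelihood F test gave a Benjamini-Hochberg adjusted p under 0.05 over the 16314 genes tested; every adjusted p below comes from that test. The 6 libraries held 12455920 to 15880353 counts each, within the 10823632 to 19512107 of all 32. Cord markers were present in both groups: the 5 neuron markers summed to 5719 to 6065 CPM in sham and 2527 to 3398 CPM in injured cords, the 5 astrocyte markers to 2893 to 3573 and 8320 to 8941 CPM, and the 5 microglia markers to 202 to 222 and 697 to 730 CPM. Injured replicate 3 stood apart in the 8 skeletal muscle markers (339 CPM, against 3.55 to 23.4 CPM in the other 5 libraries) and in the 5 Schwann cell markers (914 CPM, against 114 to 422 CPM). Sham replicate 1 held both Xist (503 CPM) and the Y-linked Ddx3y (19.1 CPM), which stood at 1.03 and 79.7 CPM in sham replicates 2 and 3 and at 0.755, 91.5 and 88.7 CPM in the injured ones, so the replicates of a group were not all of 1 animal. Xist was also high in sham replicate 2 (539 CPM) and injured replicate 1 (778 CPM), and at 0.437 to 5.88 CPM in the other 3 libraries. The effect of these differences on the results was examined by leaving out each library in turn, and both sham replicate 1 and injured replicate 3 together ("without both doubted libraries" below). In bulk tissue, fewer cells of a type and less RNA per cell cannot be told apart.

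Of all genes tested, 35.5% were called, 19.5% as higher after injury and 16.0% as lower, or 3174 and 2614 genes, and these shares are the background for every count that follows. The groups did not overlap for 28.0% of genes with the injured libraries higher and for 27.6% with them lower. The 2 directions differed in size: 10.5% of all genes were called higher by at least 2-fold and 2.76% were called lower by at least 2-fold. The 5788 calls became 3530 in number without injured replicate 1, and the 2614 called lower became 1062; the latter count was 1571 without sham replicate 2, 1604 without injured replicate 3 and 1334 without both doubted libraries. The 451 genes called lower by at least 2-fold became 197 without injured replicate 1. The members of 47 gene lists were described by counts and by the median log2 fold change, which was 0.01 over all genes. Lists of phagocyte receptors, recruitment, clotting, digestion and division lay far above that median, and lists of channels, synaptic vesicle proteins and respiratory chain subunits lay below it.

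**Figure D1:**
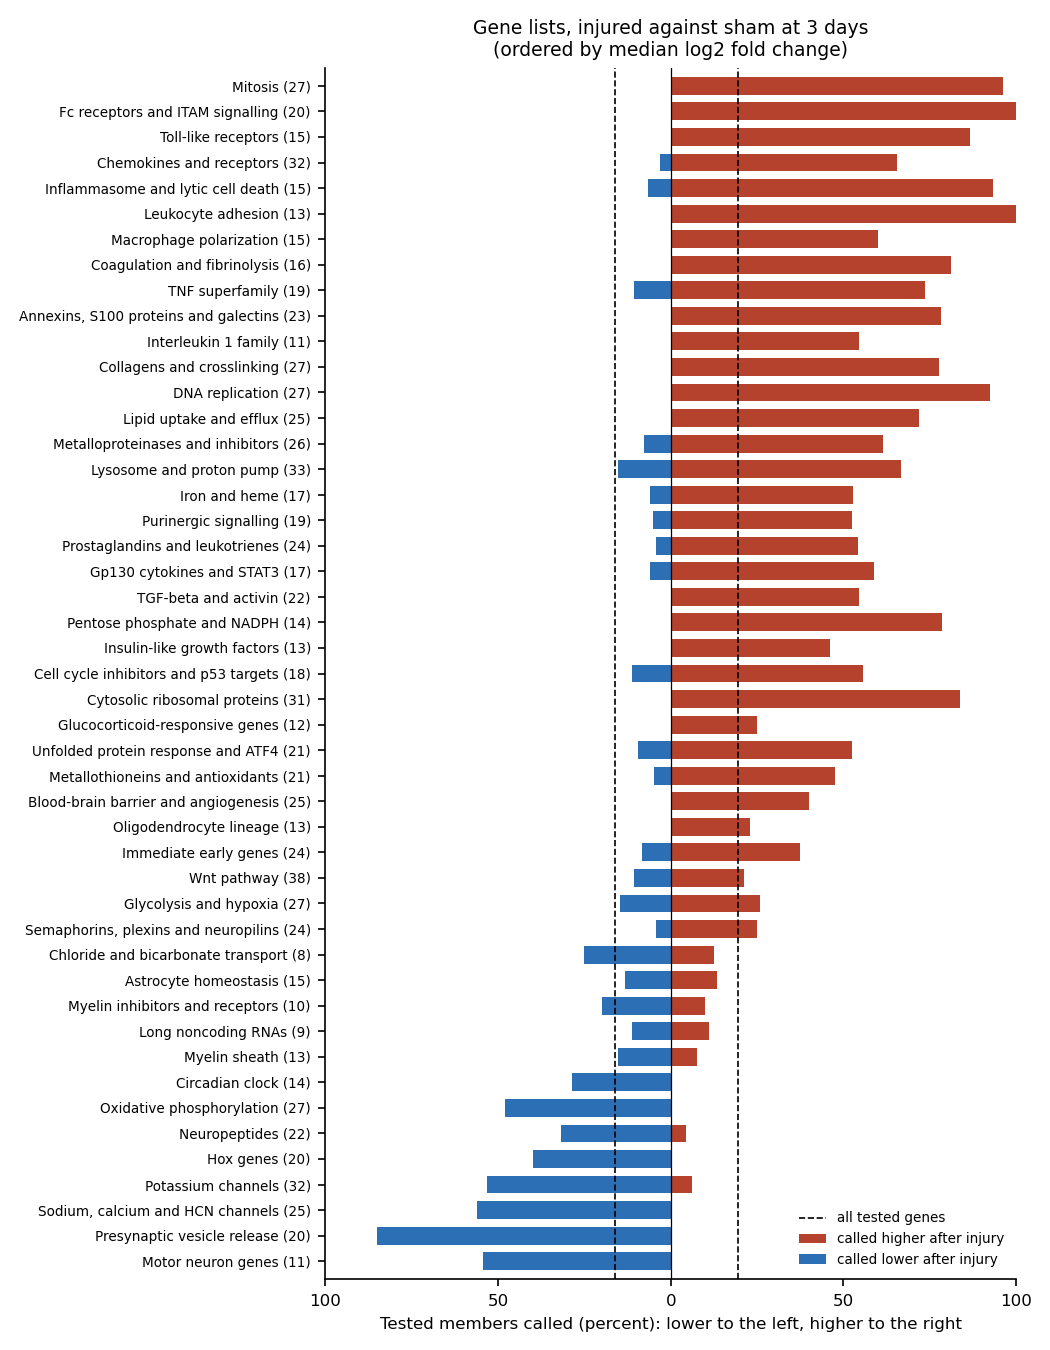
Members of each gene list called higher or lower in injured than in sham cords at 3 days, as a percent of the list's tested members (bars; the number tested is in brackets), with the lists ordered by median log2 fold change. Dashed lines mark the shares over all tested genes, 19.5% higher and 16.0% lower; the Fc receptor list lies wholly on the higher side and the presynaptic list on the lower side.

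By absolute amount, the 10 largest rises in mean CPM among called genes without overlap were those of Gfap, Spp1, Ctsd, Trf, Ctsb, Eef1a1, Vim, Ftl1, Actb and Psap. They join intermediate filaments of reactive astrocytes (Gfap, Vim), lysosomal proteins (Ctsd, Ctsb, Psap), iron handling (Trf, Ftl1), the matrix protein osteopontin (Spp1), actin and an elongation factor. Gfap stood at 1909, 2293 and 1745 CPM in the sham libraries and 6288, 6645 and 6838 CPM in the injured libraries, a log2 fold change of 1.73 ± 0.24, adjusted p = 8.3e-06. Ftl1, the light chain of ferritin, stood at 189, 206 and 192 CPM in the sham libraries and 2027, 990.4 and 1094 CPM in the injured libraries, a log2 fold change of 2.81 ± 0.37, adjusted p = 3.2e-06. Every injured library lay above every sham library for both genes, which the choice of genes required. Among the 10 largest falls in mean CPM were those of Sparcl1, Snap25, Nefm, Nefl, Map1b, Atp1b1, Nefh and Map1a. These hold a beta subunit of the sodium pump, the 3 neurofilament subunits, 2 microtubule-associated proteins of axons and dendrites, a synaptic SNARE protein and the synapse-organising Sparcl1. Snap25, the SNARE protein of the presynaptic membrane, stood at 2609, 2643 and 2660.4 CPM in the sham libraries and 1161, 1379.6 and 1141 CPM in the injured libraries, a log2 fold change of -1.10 ± 0.27, adjusted p = 0.0025. Its groups did not overlap, which the choice of genes required. Nefm lost its call without injured replicate 3 or both doubted libraries (adjusted p = 0.065 to 0.093). Nefl lost its call without both doubted libraries (adjusted p = 0.051). Map1a lost its call without sham replicate 1, 2 or 3, injured replicate 1, 2 or 3 or both doubted libraries (adjusted p = 0.054 to 0.18). Map1a was not called with DESeq2's size factors in place of TMM (adjusted p = 0.053). Map1a was not called without the filter on low counts (adjusted p = 0.073).

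The ranking by log2 fold change took only called genes without overlap and with a mean of at least 10 CPM. Among them, the 10 largest log2 rises were those of Tgm1, Arg1, Ifi204, Ifi202b, Gpnmb, Saa3, Msr1, Siglec1, Lgals3 and Cd36. Siglec1, a sialic acid receptor of macrophages, stood at 1.49, 0.714 and 0.273 CPM in the sham libraries and 77.7, 52.0 and 26.6 CPM in the injured libraries, a log2 fold change of 5.97 ± 0.80, adjusted p = 4.4e-06. Saa3, an acute phase protein, stood at 0.355, 0.397 and 0.137 CPM in the sham libraries and 76.3, 9.23 and 9.77 CPM in the injured libraries, a log2 fold change of 6.72 ± 1.43, adjusted p = 0.00088. Ifi204 and Ifi202b are related interferon-inducible genes, and the counting could have split or shared any reads that match both. Ifi204 stood at 0.284, 0.0793 and 0.205 CPM in the sham libraries and 35.7, 30.3 and 3.93 CPM in the injured libraries. Ifi202b stood at 0.213, 0.873 and 0.137 CPM in the sham libraries and 63.5, 47.4 and 25.2 CPM in the injured libraries. The injured libraries lay above the sham libraries for all 4 genes, which the choice of genes required. The highest and lowest injured library of Ifi204 were far apart. Among the 10 largest log2 falls were those of Lingo4, Hapln1, Chrm2, Chodl, Syt2, Scn4b, Lgi2, Ano3 and Agxt2l1. Hapln1, a link protein of perineuronal nets, stood at 31.8, 29.2 and 29.8 CPM in the sham libraries and 6.65, 11.1 and 8.54 CPM in the injured libraries, a log2 fold change of -1.78 ± 0.43, adjusted p = 0.0026. Chodl, a marker of fast motor neurons, stood at 35.5, 47.4 and 54.6 CPM in the sham libraries and 11.7, 24.4 and 7.16 CPM in the injured libraries, a log2 fold change of -1.66 ± 0.38, adjusted p = 0.0017. Both fell without overlap, which the choice of genes required, and by less on the log2 scale than any of the 10 largest rises moved. Lingo4 lost its call without injured replicate 1 (adjusted p = 0.075). Chrm2 lost its call without sham replicate 2, injured replicate 1 or both doubted libraries (adjusted p = 0.05 to 0.1). Syt2 lost its call without sham replicate 1, 2 or 3, injured replicate 1, 2 or 3 or both doubted libraries (adjusted p = 0.063 to 0.14). Lgi2 lost its call without injured replicate 1 or 3 or both doubted libraries (adjusted p = 0.052 to 0.097). Agxt2l1 lost its call without sham replicate 1, injured replicate 1 or 3 or both doubted libraries (adjusted p = 0.057 to 0.19). Arg1 had a log2 fold change of 8.52 and Ifi202b one of 7.98 without sham replicate 2. Saa3 had a log2 fold change of 5.00 without injured replicate 1. Siglec1 had a log2 fold change of 6.74 without sham replicate 1. Chodl had a log2 fold change of -2.28 without injured replicate 2.

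Clotting and its reversal were represented on both sides. Of 16 tested genes of coagulation and fibrinolysis, 13 were called higher and none lower, with a median log2 fold change of 2.21. Plau, the urokinase that activates plasminogen, stood at 3.27, 3.65 and 2.26 CPM in the sham libraries and 46.9, 57.2 and 26.7 CPM in the injured libraries, a log2 fold change of 3.84 ± 0.45, adjusted p = 1e-06, and its receptor Plaur had a log2 fold change of 3.73 ± 0.42 (adjusted p = 5.6e-07). F13a1, the clot-crosslinking factor XIII subunit that macrophages make, stood at 6.96, 3.25 and 4.24 CPM in the sham libraries and 121, 38.3 and 98.3 CPM in the injured libraries, a log2 fold change of 4.14 ± 0.60, adjusted p = 1.2e-05. Pros1, a cofactor that restrains clotting and also bridges dead cells to phagocytes, had a log2 fold change of 1.85 ± 0.23 (adjusted p = 1.7e-06). All 4 were higher in every injured library than in any sham library, and F3, which starts the extrinsic pathway, was not called (39.6, 33.1 and 36.9 CPM in the sham libraries and 62.7, 47.7 and 57.0 CPM in the injured libraries, a log2 fold change of 0.61 ± 0.24, adjusted p = 0.052). F3 was called in DESeq2, with DESeq2's size factors in place of TMM, without the filter on low counts, in a fit of these 6 libraries alone and without injured replicate 2 (adjusted p = 0.0029 to 0.047).

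Among heme and iron genes, heme oxygenase, ferritin light chain and the iron exporter were higher, and the transferrin receptor was lower. Hmox1, the inducible heme oxygenase that opens the heme ring, stood at 6.25, 6.27 and 6.43 CPM in the sham libraries and 341, 139 and 227 CPM in the injured libraries, a log2 fold change of 5.22 ± 0.50, adjusted p = 1.2e-07. Slc11a1, which moves iron out of the phagosome, stood at 3.84, 4.92 and 4.72 CPM in the sham libraries and 61.0, 28.0 and 28.7 CPM in the injured libraries, a log2 fold change of 3.13 ± 0.39, adjusted p = 2e-06. Slc40a1, the iron exporter ferroportin, had a log2 fold change of 1.07 ± 0.21 (adjusted p = 0.00035), and Lcn2, which binds bacterial iron carriers, one of 3.31 ± 0.67 (adjusted p = 0.00056). Tfrc, the receptor for iron uptake, went the other way (209, 221 and 214 CPM in sham cords against 141, 173 and 148 CPM in injured cords; log2 fold change of -0.48 ± 0.18, adjusted p = 0.036). In all, 9 of 17 tested iron and heme genes were called higher and 1 lower. The heavy chain of ferritin, Fth1, was not called (4570.4, 4277 and 4380.4 CPM in the sham libraries and 6580.1, 5931 and 4448 CPM in the injured libraries, a log2 fold change of 0.36 ± 0.24, adjusted p = 0.25), so the light chain differed by 2.81 and the heavy chain by 0.36 on the same log2 scale. The 4 red blood cell markers present in the table of 5 listed, of which Hba-a2 was at 0 in all 6 libraries, summed to 139 to 1028 CPM in sham and 245 to 1381 CPM in injured cords, which overlap; their part in the iron gene differences was not tested. Tfrc lost its call without sham replicate 1, 2 or 3, injured replicate 1 or 3 or both doubted libraries (adjusted p = 0.061 to 0.16). Tfrc was not called without the filter on low counts (adjusted p = 0.063).

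**Figure D2:**
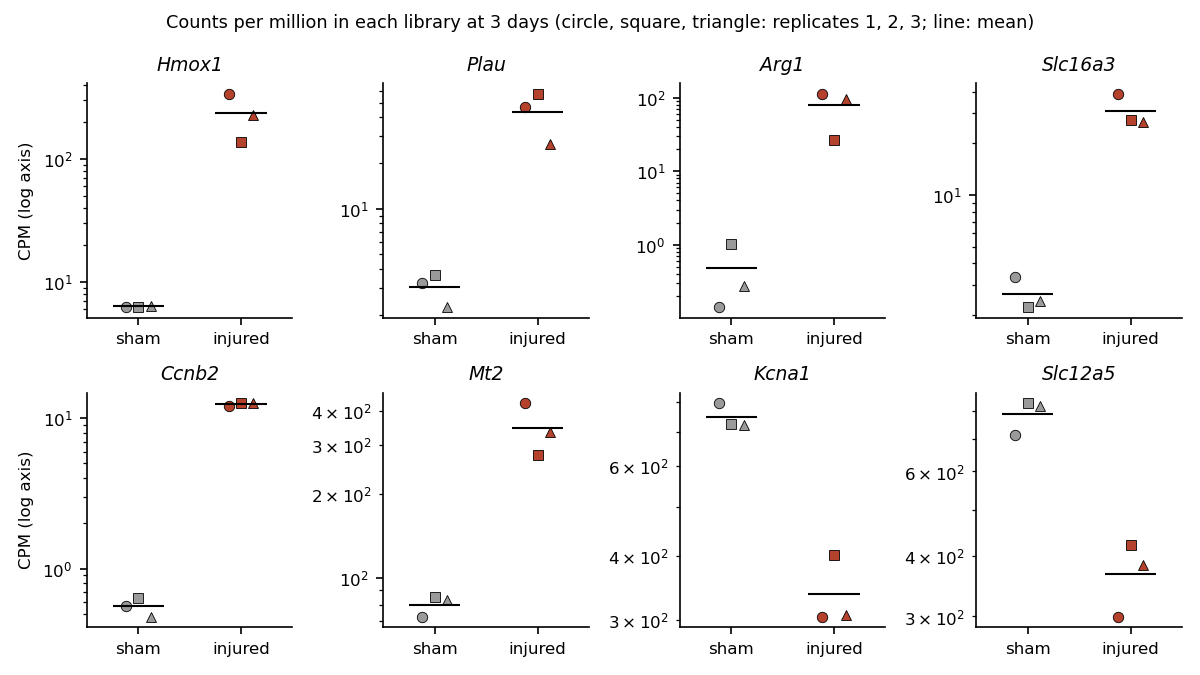
CPM of 8 genes in each of the 3 sham and 3 injured libraries at 3 days (points, log axis; bars are group means). The 2 groups do not overlap for any of the 8; the 6 risen genes lie in the first panels and the potassium channel Kcna1 and the chloride exporter Slc12a5 in the last.

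Signals that draw leukocytes were higher, together with the molecules those cells use to stop on and cross the vessel wall. Of 32 tested chemokines and chemokine receptors, 21 were called higher and 1 lower, with a median of 2.98. Among ligands of CCR receptors, Ccl3, which draws monocytes, stood at 0, 0.317 and 0.137 CPM in the sham libraries and 9.97, 6.86 and 5.54 CPM in the injured libraries, a log2 fold change of 5.59 ± 0.81, adjusted p = 1e-05. Cxcl16, a membrane-bound ligand that also binds oxidized lipid, stood at 4.26, 2.54 and 2.87 CPM in the sham libraries and 32.2, 17.7 and 16.1 CPM in the injured libraries, a log2 fold change of 2.76 ± 0.42, adjusted p = 1.9e-05. Among the receptors, Cxcr4 stood at 4.90, 4.28 and 2.67 CPM in the sham libraries and 32.5, 23.5 and 21.7 CPM in the injured libraries, a log2 fold change of 2.71 ± 0.40, adjusted p = 1.3e-05. All of these separated the groups. Ccl2 and Ccl7 belonged to the 5 members with the smallest p. Ccl2 had a log2 fold change of 5.38 ± 0.67, and Ccl7, with 2 counts over the 3 sham libraries and 20.1, 6.36 and 7.85 CPM in the injured ones, a ratio of 229.7 with an exact counting interval of 63.2 to 1902; Ccl2 and Ccl12 are close copies and their reads may not have been kept apart. The 1 member called lower was Cx3cl1, the neuronal ligand of the microglial receptor Cx3cr1, at 211, 190.4 and 222 CPM in the sham libraries and 104, 125 and 110.4 CPM in the injured libraries, a log2 fold change of -0.88 ± 0.19, adjusted p = 0.00089. Without sham replicate 2 the other sham libraries held 3 or fewer counts of Ccl3, so no fold is given. Without sham replicate 1 the other sham libraries held 3 or fewer counts of Ccl7, so no fold is given.

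All 13 tested genes of leukocyte adhesion were called higher, with a median of 2.51. Itgb2, the beta-2 chain that pairs with the leukocyte integrins, stood at 8.17, 7.93 and 8.61 CPM in the sham libraries and 133, 92.4 and 104 CPM in the injured libraries, a log2 fold change of 3.73 ± 0.37, adjusted p = 2.1e-07. Its alpha partners differed in size: Itgax had a log2 fold change of 5.12 ± 0.58 (adjusted p = 6.1e-07), Itgal one of 3.38 ± 0.45 (adjusted p = 4.2e-06) and Itgam one of 2.51 ± 0.42 (adjusted p = 7.3e-05). On the endothelial side, Icam1, which those integrins bind, stood at 2.84, 2.70 and 5.26 CPM in the sham libraries and 29.3, 18.7 and 23.9 CPM in the injured libraries, a log2 fold change of 2.72 ± 0.39, adjusted p = 9.1e-06. The summed level of the 6 monocyte markers, which moves with these genes, was 10.7 to 23.4 CPM in sham and 105 to 238 CPM in injured cords. That of 7 of the 8 neutrophil markers was 44.6 to 99.7 and 124 to 238 CPM. For 5 of the 6 T cell markers it was 0.213 to 0.752 and 0.437 to 1.51 CPM. All 6 monocyte markers were called higher, and none of the 7 neutrophil or 5 T cell markers was called. The part of these markers in the adhesion differences was not tested.

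Receptors for microbial and damage signals were higher nearly throughout. Of 15 tested genes of Toll-like receptor signalling, 13 were called higher and none lower, with a median of 3.19. Of the 10 receptors, 8 were called: Tlr8, which senses RNA in endosomes, had the highest log2 fold change (5.73 ± 0.89), followed by Tlr7 (4.02 ± 0.42), Tlr13 (3.79 ± 0.41), Tlr1 (3.69 ± 0.78), Tlr6 (3.66 ± 0.59), Tlr4 (3.38 ± 0.40), Tlr2 (3.29 ± 0.39) and Tlr9 (1.77 ± 0.34). Neighbours in this order differed by less than these standard errors, except at the steps from Tlr8 to Tlr7 and from Tlr2 to Tlr9. Tlr3 (0.47 ± 0.20) and Tlr5 (0.09 ± 0.51) were not called. Tlr2, a receptor for lipoproteins, stood at 4.12, 2.46 and 4.99 CPM in the sham libraries and 46.7, 32.0 and 35.1 CPM in the injured libraries, with an adjusted p of 9.5e-07. Cd14, the lipopolysaccharide coreceptor, stood at 3.84, 4.21 and 4.58 CPM in the sham libraries and 51.5, 14.9 and 49.6 CPM in the injured libraries, a log2 fold change of 3.19 ± 0.38, adjusted p = 1.2e-06. Tlr13, whose ligand is bacterial ribosomal RNA, stood at 2.34, 2.14 and 3.49 CPM in the sham libraries and 50.9, 27.7 and 32.5 CPM in the injured libraries (adjusted p = 3.7e-07). Each of these 3 was higher in every injured library. Tlr1 had a log2 fold change of 4.33 without sham replicate 1. Without sham replicate 3 the other sham libraries held 3 or fewer counts of Tlr8 and Tlr6, so no fold is given. Tlr3 was called without injured replicate 3 and without both doubted libraries (adjusted p = 0.02 to 0.023).

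Among inflammasome and lytic death genes, 14 of 15 were called higher and 1 lower, with a median of 2.58. Nlrp3, the sensor that assembles on cell damage, stood at 1.21, 1.19 and 0.615 CPM in the sham libraries and 5.59, 5.43 and 7.39 CPM in the injured libraries, a log2 fold change of 2.61 ± 0.40, adjusted p = 2.2e-05. Its adaptor Pycard had a log2 fold change of 2.49 ± 0.38 (adjusted p = 2e-05), Casp8 one of 2.58 ± 0.36 (adjusted p = 6.3e-06) and the necroptosis kinase Ripk1 one of 1.48 ± 0.21 (adjusted p = 9.9e-06). Naip2 was also among the 5 smallest p (2.96 ± 0.47), but it has near-identical neighbours such as Naip5, so its reads are uncertain. The exception was Dfna5, the gasdermin that caspase-3 cleaves, at 14.9, 18.4 and 13.3 CPM in the sham libraries and 7.25, 11.2 and 8.31 CPM in the injured libraries, a log2 fold change of -0.79 ± 0.18, adjusted p = 0.0014.

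Cytokines of the interleukin 1 and TNF families rose on the ligand and on the receptor side. Il1b, the secreted agonist that the inflammasome matures, stood at 0.213, 0.476 and 0.342 CPM in the sham libraries and 4.61, 2.43 and 3.23 CPM in the injured libraries, a log2 fold change of 3.29 ± 0.55, adjusted p = 6.9e-05, and its signalling receptor Il1r1 at 9.09, 9.68 and 7.52 CPM in the sham libraries and 46.4, 22.6 and 33.4 CPM in the injured libraries, a log2 fold change of 1.96 ± 0.33, adjusted p = 7.2e-05. Both separated the groups. Il18bp, the decoy for interleukin 18, had a log2 fold change of 1.41 ± 0.33 (adjusted p = 0.0019). In all, 6 of 11 tested members of the interleukin 1 family were called higher and none lower, and 3 were called higher without both doubted libraries. Of 19 tested members of the TNF superfamily, 14 were called higher and 2 lower. Tnfrsf1a, the widely expressed TNF receptor, stood at 22.4, 19.6 and 19.1 CPM in the sham libraries and 109, 77.8 and 98.4 CPM in the injured libraries, a log2 fold change of 2.22 ± 0.22, adjusted p = 1.3e-07. Tnfrsf1b, the other TNF receptor, had a log2 fold change of 2.89 ± 0.45 (adjusted p = 3.1e-05), the costimulatory receptor Cd40 one of 2.54 ± 0.43, the CD30 ligand Tnfsf8 one of 3.76 ± 0.67 and the TWEAK receptor Tnfrsf12a one of 1.34 ± 0.24. The members called lower were Tnfrsf21, death receptor 6 of neurons and axons, at 147, 149 and 160.4 CPM in the sham libraries and 111, 107 and 103 CPM in the injured libraries (log2 fold change of -0.51 ± 0.15, adjusted p = 0.01), and Tnfsf13b, the B cell factor BAFF, with a log2 fold change of -0.63 ± 0.23 (adjusted p = 0.031). Tnfrsf21 lost its call without injured replicate 3 or both doubted libraries (adjusted p = 0.055 to 0.057). Tnfsf13b lost its call without sham replicate 1 or 3, injured replicate 1 or 2 or both doubted libraries (adjusted p = 0.051 to 0.13). Tnfsf13b was not called without the filter on low counts (adjusted p = 0.056).

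Every one of the 20 tested Fc receptor and ITAM signalling genes was called higher, with a median of 3.31, and this held for activating receptors, inhibitory receptors and kinases alike. ITAM motifs are the tyrosine pairs through which phagocyte receptors call on the kinase Syk. Tyrobp, the adaptor that carries such a motif for Trem2 and other receptors, stood at 8.38, 10.00 and 7.59 CPM in the sham libraries and 98.6, 65.8 and 76.4 CPM in the injured libraries, a log2 fold change of 3.21 ± 0.40, adjusted p = 1.6e-06. Fcgr2b, the inhibitory Fc receptor, stood at 1.56, 3.49 and 2.73 CPM in the sham libraries and 62.8, 31.4 and 42.9 CPM in the injured libraries, a log2 fold change of 4.14 ± 0.50, adjusted p = 1.4e-06, and the inhibitory Lilrb4 at 3.20, 1.19 and 1.85 CPM in the sham libraries and 89.0, 50.5 and 48.5 CPM in the injured libraries, a log2 fold change of 4.90 ± 0.52, adjusted p = 3.1e-07. The groups did not overlap for any of these. The kinase Lyn (2.66 ± 0.32) and the exchange factor Vav1 (2.97 ± 0.34) completed the 5 smallest p. Of the 9 activating receptors, Trem1 had 1 count over the 3 sham libraries and 3.17, 1.43 and 1.62 CPM in the injured ones, a ratio of 84.1 with an exact counting interval of 14.7 to 3358. The lowest log2 fold change among them was 2.65 (Fcgr3), and the 5 inhibitory receptors had log2 fold changes of 0.54 (Sirpa, also on neurons) to 4.90 (Lilrb4). Fc receptor genes are close relatives, and reads that match more than 1 of them are uncertain. The sum of the 6 monocyte markers stood at 10.7 to 23.4 CPM in sham and 105 to 238 CPM in injured cords and that of the 5 microglia markers at 202 to 222 and 697 to 730 CPM, and their part in these differences was not tested. Without sham replicate 3 the other sham libraries held 3 or fewer counts of Trem1, so no fold is given.

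Of 15 tested markers used to sort macrophages into pro-inflammatory and wound-healing states, 9 were called higher and none lower. They were 5 of 6 pro-inflammatory markers and 4 of 9 wound markers, and the difference between the 2 sides was not tested. On the pro-inflammatory side, Irf5, a transcription factor, stood at 3.69, 4.05 and 2.67 CPM in the sham libraries and 29.7, 25.4 and 21.3 CPM in the injured libraries, a log2 fold change of 2.88 ± 0.36, adjusted p = 1.8e-06; the high-affinity Fc receptor Fcgr1 had a log2 fold change of 3.59 ± 0.48 and the costimulatory Cd86 one of 2.35 ± 0.45. On the wound side, Arg1, arginase 1, stood at 0.142, 1.03 and 0.273 CPM in the sham libraries and 113, 26.9 and 96.9 CPM in the injured libraries, a log2 fold change of 7.39 ± 1.45, adjusted p = 0.00039, and Il4ra, the receptor chain for interleukins 4 and 13, at 11.2, 9.44 and 9.23 CPM in the sham libraries and 66.0, 32.1 and 63.1 CPM in the injured libraries, a log2 fold change of 2.43 ± 0.33, adjusted p = 5.3e-06. Arg1 was higher in every injured library, with injured replicate 2 lowest. Nos2, the inducible nitric oxide synthase, was not called (0.781, 2.06 and 1.85 CPM in the sham libraries and 4.98, 1.31 and 1.77 CPM in the injured libraries, a log2 fold change of 0.78 ± 0.63, adjusted p = 0.35), nor was the mannose receptor Mrc1 (6.32, 3.73 and 3.62 CPM in the sham libraries and 15.6, 6.05 and 16.6 CPM in the injured libraries, a log2 fold change of 1.48 ± 0.62, adjusted p = 0.066). Mrc1 was called in DESeq2, in a fit of these 6 libraries alone and without injured replicate 2 (adjusted p = 0.014 to 0.041).

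Digestion in the lysosome split into 2 directions: enzymes were higher, while the subunits of the proton pump that acidifies the organelle were lower or not called, with 1 exception. Of 33 tested lysosomal genes, 22 were called higher and 5 lower, and all 5 of the latter are proton pump subunits or its accessory protein. Among the 10 cathepsins, the lysosomal proteases, 9 were called higher: Ctsc (3.20 ± 0.41), Ctse (3.07 ± 0.92, with overlapping groups), Ctss (2.90 ± 0.37), Ctsd (2.67 ± 0.33), Ctsz (2.67 ± 0.35), Ctsh (2.30 ± 0.34), Ctsl (2.15 ± 0.29), Ctsb (1.79 ± 0.25) and Ctsa (1.12 ± 0.22); Ctsk (0.93 ± 0.40) was not. Ctss, the cathepsin of antigen-presenting cells, stood at 68.3, 74.1 and 59.3 CPM in the sham libraries and 650.5, 428 and 423 CPM in the injured libraries, with an adjusted p of 2.9e-06. Of the other hydrolases and membrane proteins, all 10 of 10 were called higher. Gusb, the lysosomal glucuronidase, stood at 20.7, 19.4 and 19.5 CPM in the sham libraries and 135, 89.8 and 123 CPM in the injured libraries, a log2 fold change of 2.54 ± 0.27, adjusted p = 3.1e-07. Its groups did not overlap. Of the 10 tested pump genes, 1 was called higher, Tcirg1, the a3 subunit of macrophages and osteoclasts, at 26.3, 25.6 and 31.2 CPM in the sham libraries and 144, 101 and 91.4 CPM in the injured libraries, a log2 fold change of 2.02 ± 0.32, adjusted p = 3.3e-05. Called lower were Atp6v1b2 (625, 643 and 648 CPM in sham cords against 369, 425 and 388 CPM in injured cords; log2 fold change of -0.70 ± 0.17, adjusted p = 0.0024), Atp6v1c1 (-0.43 ± 0.10), Atp6v0a1, the a1 subunit found at synapses (-0.57 ± 0.17), Atp6v1a (-0.56 ± 0.17) and Atp6ap2 (-0.29 ± 0.09). Not called were Atp6v1h (-0.30), Atp6v0d1 (-0.15), Atp6ap1 (-0.09) and Atp6v0b (0.13). The median was -0.30 for the pump and 2.48 for the cathepsins. The 5 calls on the lower side became 2 without sham replicate 2, 3 without injured replicate 1 and 2 without injured replicate 3. The 5 summed neuron markers, which were lower in every injured library, moved with the pump subunits called lower; their part in it was not tested. Ctse lost its call without sham replicate 3, injured replicate 3 or both doubted libraries (adjusted p = 0.058 to 0.22). Atp6v0a1 and Atp6v1a lost their calls without sham replicate 2, injured replicate 1 or 3 or both doubted libraries (adjusted p = 0.052 to 0.08). Atp6ap2 lost its call without sham replicate 2 or 3, injured replicate 3 or both doubted libraries (adjusted p = 0.055 to 0.17). Atp6ap2 was not called without the filter on low counts (adjusted p = 0.059). Ctse had a log2 fold change of 4.16 without sham replicate 1. Ctsk was called in DESeq2 and in a fit of these 6 libraries alone (adjusted p = 0.002 to 0.049).

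**Figure D3:**
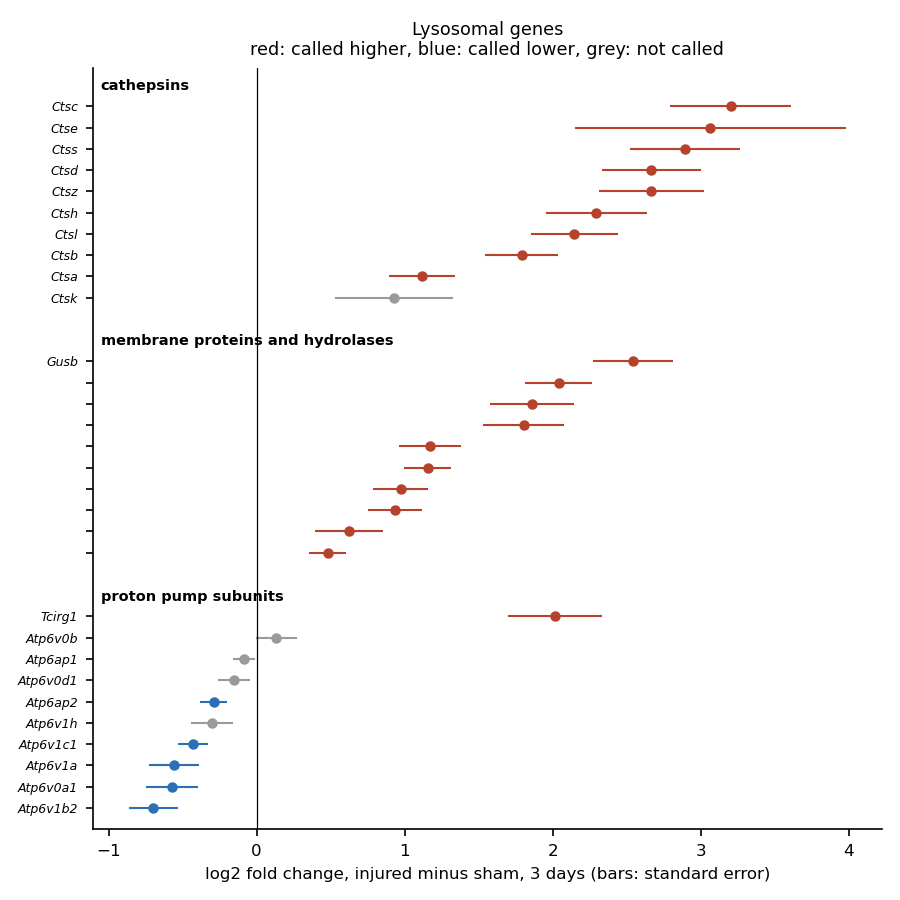
Log2 fold change, injured over sham at 3 days, of each tested cathepsin, hydrolase or membrane protein, and proton pump gene (points, with the genes named in the text labelled; bars are 1 standard error; red was called higher, blue lower and grey not called). Enzymes lie to the right of 0, and all pump genes but Tcirg1 lie near or to the left of it.

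Lipid handling rose at uptake, storage and efflux, with 18 of 25 tested genes called higher and none lower (median 1.28). Msr1, a scavenger receptor for modified lipoprotein, stood at 0.710, 0.397 and 0.410 CPM in the sham libraries and 71.7, 29.9 and 52.6 CPM in the injured libraries, a log2 fold change of 6.64 ± 0.81, adjusted p = 1.4e-06. Plin2, the coat protein of lipid droplets, stood at 20.5, 18.0 and 17.2 CPM in the sham libraries and 227, 110.4 and 119 CPM in the injured libraries, a log2 fold change of 3.03 ± 0.40, adjusted p = 3.4e-06. Abca1, the cholesterol exporter, stood at 60.5, 47.7 and 55.2 CPM in the sham libraries and 286, 207 and 287 CPM in the injured libraries, a log2 fold change of 2.25 ± 0.27, adjusted p = 1.2e-06. The 3 genes separated the groups, and in each of them injured replicate 2 had the lowest injured level. Axl, a receptor for phosphatidylserine on dead cells, had a log2 fold change of 1.26 ± 0.20, and Soat1, which esterifies cholesterol, one of 1.28 ± 0.21. Apoe, the main lipid carrier of the cord, was not called at 3 days (1443, 1485 and 1279 CPM in the sham libraries and 3052, 2418 and 1841 CPM in the injured libraries, a log2 fold change of 0.80 ± 0.33, adjusted p = 0.062). Apoe was called in DESeq2, in a fit of these 6 libraries alone, with a term for high Xist and without injured replicate 3 (adjusted p = 0.0045 to 0.042).

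The phagocyte NADPH oxidase, which makes superoxide, was higher in all of its 6 genes, with a median of 3.25. The membrane subunit Cybb stood at 5.90, 4.13 and 7.04 CPM in the sham libraries and 74.7, 59.8 and 53.5 CPM in the injured libraries, a log2 fold change of 3.45 ± 0.40, adjusted p = 8.5e-07, and its partner Cyba at 5.83, 4.44 and 4.79 CPM in the sham libraries and 95.1, 51.6 and 50.2 CPM in the injured libraries, a log2 fold change of 3.70 ± 0.45, adjusted p = 1.6e-06. The cytosolic subunits Ncf1 and Ncf4 and the GTPase Rac2 had log2 fold changes of 3.21 ± 0.35, 3.30 ± 0.51 and 2.64 ± 0.41. No sham library reached any injured library for these genes. In the pentose phosphate pathway, which supplies NADPH, Pgd, its second dehydrogenase, had a log2 fold change of 1.05 ± 0.18 (adjusted p = 8.3e-05).

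Enzymes and receptors for lipid mediators and extracellular nucleotides were higher in part. Of 24 tested prostaglandin and leukotriene genes, 13 were called higher and 1 lower. Alox5ap, which presents arachidonic acid for leukotriene synthesis, stood at 3.62, 4.44 and 4.99 CPM in the sham libraries and 53.3, 29.8 and 31.1 CPM in the injured libraries, a log2 fold change of 3.12 ± 0.38, adjusted p = 1.3e-06, and Alox5, the synthesis enzyme, had a log2 fold change of 2.08 ± 0.45. The thromboxane synthase Tbxas1 stood at 1.85, 2.30 and 0.820 CPM in the sham libraries and 19.1, 9.86 and 16.9 CPM in the injured libraries, a log2 fold change of 3.21 ± 0.43, adjusted p = 4.1e-06. Hpgd, which inactivates prostaglandins, stood at 11.6, 11.3 and 9.98 CPM in the sham libraries and 76.6, 65.1 and 69.2 CPM in the injured libraries, a log2 fold change of 2.68 ± 0.40, adjusted p = 1.5e-05. These genes did not overlap between groups. The 2 prostaglandin D synthases went apart: Hpgds, of hematopoietic cells, had a log2 fold change of 1.89 ± 0.39, and Ptgds, of meninges and glia, was lower, at 717, 367 and 667 CPM in the sham libraries and 193, 289 and 166 CPM in the injured libraries, a log2 fold change of -1.43 ± 0.41, adjusted p = 0.0079. Of 19 tested purinergic genes, 10 were called higher and 1 lower. P2ry6, the UDP receptor that triggers microglial phagocytosis, stood at 2.63, 1.98 and 2.19 CPM in the sham libraries and 25.2, 14.8 and 18.7 CPM in the injured libraries, a log2 fold change of 3.10 ± 0.40, adjusted p = 3e-06. P2rx7, the ATP-gated pore, and P2ry2 had log2 fold changes of 0.92 ± 0.20 and 2.48 ± 0.51, the adenosine receptor Adora3 one of 1.79 ± 0.35, and Entpd1 (CD39), which degrades ATP, one of 1.14 ± 0.24. Adora1, the neuronal adenosine receptor, was lower (-0.35 ± 0.14, adjusted p = 0.047). Ptgds lost its call without both doubted libraries (adjusted p = 0.11). Adora1 lost its call without sham replicate 1, 2 or 3, injured replicate 1 or 3 or both doubted libraries (adjusted p = 0.092 to 0.2). Adora1 was not called with DESeq2's size factors in place of TMM (adjusted p = 0.055). Adora1 was not called without the filter on low counts (adjusted p = 0.097).

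Cytokines that signal through gp130 and STAT3, the route to the reactive astrocyte state, were higher as 4 of 5 ligands, 2 of 6 receptor chains and 4 of 6 signal and feedback genes. Of 17 tested genes, 10 were called higher and 1 lower. Among the ligands, Osm had 1 count over the 3 sham libraries and 3.02, 1.43 and 2.16 CPM in the injured ones, a ratio of 88.9 with an exact counting interval of 15.6 to 3551; Clcf1 had a log2 fold change of 3.25 ± 0.44 and Lif one of 1.96 ± 0.62, and Il11 (0.71 ± 0.62) was not called. Osmr, the receptor chain for oncostatin M, stood at 9.02, 6.35 and 9.50 CPM in the sham libraries and 61.2, 43.4 and 52.8 CPM in the injured libraries, a log2 fold change of 2.66 ± 0.33, adjusted p = 1.8e-06. Socs3, the feedback inhibitor that STAT3 induces, stood at 3.34, 2.94 and 2.39 CPM in the sham libraries and 51.0, 20.5 and 47.9 CPM in the injured libraries, a log2 fold change of 3.78 ± 0.39, adjusted p = 2.9e-07. Bcl3, a nuclear IkB protein, and Stat3 itself had log2 fold changes of 3.76 ± 0.48 and 0.86 ± 0.12. For Osmr, Socs3, Bcl3 and Stat3 the groups did not overlap. Cntfr, the receptor chain for ciliary neurotrophic factor, was lower (125, 101 and 104 CPM in sham cords against 76.9, 81.0 and 77.0 CPM in injured cords; log2 fold change of -0.49 ± 0.15, adjusted p = 0.011). Lif lost its call without sham replicate 2, injured replicate 3 or both doubted libraries (adjusted p = 0.069 to 0.1). Cntfr lost its call without sham replicate 1, injured replicate 1 or both doubted libraries (adjusted p = 0.056 to 0.13). Without sham replicate 1 the other sham libraries held 3 or fewer counts of Osm, so no fold is given.

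Of 22 tested TGF-beta and activin genes 12 were called higher and none lower; Tgfb1 stood at 7.53, 7.06 and 9.91 CPM in the sham libraries and 50.2, 28.9 and 35.9 CPM in the injured libraries, a log2 fold change of 2.23 ± 0.32, adjusted p = 1.2e-05, and its receptors Tgfbr2, Tgfbr1 and Acvrl1 had log2 fold changes of 1.54 ± 0.22, 1.01 ± 0.17 and 0.98 ± 0.19. Tgfbi, a matrix protein that TGF-beta induces, stood at 23.2, 14.1 and 16.8 CPM in the sham libraries and 257, 91.9 and 164 CPM in the injured libraries, a log2 fold change of 3.24 ± 0.54, adjusted p = 5.9e-05. In the insulin-like growth factor system the binding proteins moved and the ligands did not pass the test: Igfbp7 stood at 47.3, 28.6 and 40.1 CPM in the sham libraries and 202, 103 and 149 CPM in the injured libraries, a log2 fold change of 1.97 ± 0.37, adjusted p = 0.00028, and Igfbp3 and Igfbp2 had log2 fold changes of 2.17 ± 0.41 and 1.85 ± 0.38, while Igf1 had 0.76 ± 0.48 and Igf2 -0.74 ± 0.59. The mRNA-binding Igf2bp2 had a log2 fold change of 2.83 ± 0.47 (adjusted p = 5.8e-05).

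Of 27 tested collagen and crosslinking genes, 21 were called higher and none lower, with a median of 1.60. Among the enzymes that modify collagen, the prolyl hydroxylase subunit P4ha3 stood at 13.1, 17.7 and 13.5 CPM in the sham libraries and 72.6, 77.0 and 71.6 CPM in the injured libraries, a log2 fold change of 2.32 ± 0.22, adjusted p = 1.2e-07, and the lysyl hydroxylase Plod2 had a log2 fold change of 1.43 ± 0.23. Col4a1, of the basement membrane, stood at 77.0, 74.8 and 98.2 CPM in the sham libraries and 432, 286 and 299 CPM in the injured libraries, a log2 fold change of 2.02 ± 0.27, adjusted p = 3.5e-06, and its partner chain Col4a2 had 1.19 ± 0.23. Col16a1, a chain that joins other fibrils, stood at 72.0, 62.6 and 63.9 CPM in the sham libraries and 232, 215 and 272 CPM in the injured libraries, a log2 fold change of 1.86 ± 0.23, adjusted p = 1.6e-06. These chains and enzymes separated the groups. The count of collagen genes called was 13 without injured replicate 1. The 6 meningeal fibroblast markers summed to 672 to 879 CPM in sham and 1138 to 1849 CPM in injured cords, and their part in the collagen differences was not tested.

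Of 26 tested genes of proteinases that cut matrix and shed membrane proteins, and of their inhibitors, 16 were called higher and 2 lower. Adam8, a sheddase of leukocytes, stood at 4.69, 2.46 and 2.73 CPM in the sham libraries and 139, 50.2 and 79.0 CPM in the injured libraries, a log2 fold change of 4.75 ± 0.52, adjusted p = 4.6e-07. Mmp19, Adam12 and the TNF-releasing Adam17 had log2 fold changes of 2.00 ± 0.34, 2.03 ± 0.37 and 1.07 ± 0.20. The tissue inhibitors of metalloproteinases did not move together. Timp1 stood at 2.56, 1.11 and 0.889 CPM in the sham libraries and 79.0, 28.7 and 46.9 CPM in the injured libraries, a log2 fold change of 5.07 ± 0.58, adjusted p = 7.6e-07, and Timp3 had a log2 fold change of 0.63 ± 0.17. Timp2 was lower, at 452, 478 and 472 CPM in the sham libraries and 371, 353 and 361 CPM in the injured libraries, a log2 fold change of -0.37 ± 0.09, adjusted p = 0.0026, and Timp4 (0.44 ± 0.20) was not called. Mmp17, a membrane-bound proteinase, was lower as well (-0.86 ± 0.24, adjusted p = 0.0079). Without both doubted libraries 10 genes of this list were called higher. Timp1 had a log2 fold change of 5.68 without sham replicate 1. Timp4 was called in a fit of these 6 libraries alone (adjusted p = 0.0084).

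Calcium-binding and sugar-binding proteins of injured tissue rose in 18 of 23 tested annexin, S100 and galectin genes and fell in none (median 1.76). Lgals3, the galectin of phagocytes, stood at 2.49, 2.78 and 1.37 CPM in the sham libraries and 198, 108 and 98.2 CPM in the injured libraries, a log2 fold change of 5.94 ± 0.69, adjusted p = 9.1e-07, and Lgals1 at 33.7, 29.8 and 29.1 CPM in the sham libraries and 248, 148 and 230.1 CPM in the injured libraries, a log2 fold change of 2.76 ± 0.37, adjusted p = 5.3e-06. Both galectins separated the groups. S100a11, Anxa3 and Lgals9 had log2 fold changes of 3.58 ± 0.47, 2.71 ± 0.42 and 2.35 ± 0.34. The neutrophil proteins S100a8 (19.8, 8.73 and 20.8 CPM in the sham libraries and 32.8, 52.3 and 50.3 CPM in the injured libraries, a log2 fold change of 1.45 ± 0.92, adjusted p = 0.22) and S100a9 (log2 fold change of 1.37 ± 0.89, adjusted p = 0.24) were not called at 3 days. S100a8 was called in a fit of these 6 libraries alone (adjusted p = 0.0043). S100a9 was called in a fit of these 6 libraries alone (adjusted p = 0.0039).

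Cell division differed between groups in nearly every gene examined. Of 27 tested DNA replication genes 25 were called higher and none lower, with a median of 1.33, and of 27 tested mitosis genes 26 were called higher and none lower, with a median of 3.42. The replicative helicase subunits Mcm5 and Mcm6 stood at 4.404, 3.57 and 2.53 CPM in the sham libraries and 30.5, 20.9 and 31.4 CPM in the injured libraries (log2 fold change of 2.98 ± 0.33, adjusted p = 4.6e-07) and at 5.54, 4.44 and 6.90 CPM in the sham libraries and 47.7, 31.6 and 33.3 CPM in the injured libraries (log2 fold change of 2.73 ± 0.33, adjusted p = 1.2e-06). Mcm10 and Mcm3 had log2 fold changes of 3.01 ± 0.36 and 2.61 ± 0.33, and Pole, the leading-strand polymerase, one of 1.96 ± 0.26. In mitosis, Ccnb2, cyclin B2, stood at 0.568, 0.635 and 0.479 CPM in the sham libraries and 12.0, 12.5 and 12.5 CPM in the injured libraries (log2 fold change of 4.45 ± 0.50, adjusted p = 5.6e-07) and Kif2c, a kinesin that takes microtubules apart at kinetochores, at 0.213, 0.238 and 0.273 CPM in the sham libraries and 9.82, 8.48 and 8.54 CPM in the injured libraries (log2 fold change of 5.16 ± 0.56, adjusted p = 4.4e-07). Tpx2, a spindle assembly factor, stood at 3.05, 3.41 and 1.57 CPM in the sham libraries and 31.5, 32.9 and 29.7 CPM in the injured libraries (log2 fold change of 3.55 ± 0.36, adjusted p = 2.1e-07). The injured libraries were above every sham library for all of these, and they were close together for Ccnb2, Kif2c and Tpx2. Kif23 and Nuf2 had log2 fold changes of 4.00 ± 0.45 and 3.19 ± 0.38. The 1 mitosis gene not called was Anln (196, 215 and 203 CPM in the sham libraries and 167, 216 and 166 CPM in the injured libraries, a log2 fold change of -0.16 ± 0.15, adjusted p = 0.43), which myelinating cells also express.

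The promoters of these 2 lists are shown because genes of DNA replication are textbook targets of E2F factors and genes of mitosis of complexes that bind the cell cycle homology element, and the lists rose together. Windows of 300 bases, 250 before to 50 after the annotated start, were taken from RefSeq for GRCm38.p6 and were present for 22 of the 27 genes in each list. The E2F element was searched as the heptamer TTCCCGC, its variant TTGGCGC, its variant TTGCCGC or its variant TTCGCGC, and the cell cycle homology element as TTTGAA or TTCGAA, each on both strands; the reverse complement of TTCGAA is itself. Shares are of genes with a window, and a gene counted where any of its windows held a match. An E2F match was present for 72.7% of the replication genes, 9.1% of the mitosis genes and 10.9% of all genes. Over the other gene sets searched, its share ranged from 0% for cathepsins and metallothioneins to 30.8% for glycolysis and hypoxia. In all, 8 motifs were searched, and only some of them are described. A match to the cell cycle homology element was present for 81.8% of the mitosis genes, 22.7% of the replication genes and 21.7% of all genes. A match is a description of the letters, not a site of binding. A window was shown, here and for the metallothioneins below, only where it held a match. Called genes were taken in order of adjusted p, and those without a window or a match were passed over. The windows of Mcm5 (chr8:75109259-75109558, plus strand) and Mcm6 (chr1:128359656-128359955, minus strand) follow with E2F matches in capitals, and those of Kif2c (chr4:117178723-117179022, minus strand) and Ccnb2 (chr9:70421505-70421804, minus strand) with matches to the cell cycle homology element in capitals, each written 5′ to 3′ on the gene's strand.
Mcm5: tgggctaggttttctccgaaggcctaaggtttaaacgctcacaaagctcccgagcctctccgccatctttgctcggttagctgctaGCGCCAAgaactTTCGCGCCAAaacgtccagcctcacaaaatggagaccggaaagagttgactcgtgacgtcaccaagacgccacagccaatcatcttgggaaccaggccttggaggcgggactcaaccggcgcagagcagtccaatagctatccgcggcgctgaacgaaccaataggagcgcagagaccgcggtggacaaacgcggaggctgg
Mcm6: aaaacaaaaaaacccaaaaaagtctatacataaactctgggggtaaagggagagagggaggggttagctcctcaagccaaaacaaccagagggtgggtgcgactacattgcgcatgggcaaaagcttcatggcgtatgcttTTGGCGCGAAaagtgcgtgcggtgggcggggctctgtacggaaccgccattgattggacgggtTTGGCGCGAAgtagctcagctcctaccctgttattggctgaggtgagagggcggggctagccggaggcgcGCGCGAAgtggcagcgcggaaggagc
Kif2c: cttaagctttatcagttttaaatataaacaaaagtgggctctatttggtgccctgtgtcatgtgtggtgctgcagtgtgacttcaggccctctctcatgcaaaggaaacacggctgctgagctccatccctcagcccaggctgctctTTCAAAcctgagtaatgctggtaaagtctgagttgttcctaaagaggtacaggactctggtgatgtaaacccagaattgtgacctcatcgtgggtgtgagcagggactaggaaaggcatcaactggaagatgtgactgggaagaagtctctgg
Ccnb2: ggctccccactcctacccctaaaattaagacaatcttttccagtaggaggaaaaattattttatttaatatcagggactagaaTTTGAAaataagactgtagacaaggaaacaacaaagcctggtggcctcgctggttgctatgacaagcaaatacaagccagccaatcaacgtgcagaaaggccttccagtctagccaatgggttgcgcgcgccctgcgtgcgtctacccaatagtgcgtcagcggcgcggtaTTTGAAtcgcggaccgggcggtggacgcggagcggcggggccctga

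Of 18 tested brakes on the cell cycle and p53 targets, 10 were called higher and 2 lower. Cdkn1a, p21, stood at 28.6, 16.2 and 28.6 CPM in the sham libraries and 72.4, 42.9 and 55.6 CPM in the injured libraries, a log2 fold change of 1.22 ± 0.27, adjusted p = 0.0013. Ccng1, cyclin G1, stood at 52.99, 59.4 and 53.8 CPM in the sham libraries and 125, 106 and 124 CPM in the injured libraries, a log2 fold change of 1.10 ± 0.15, adjusted p = 5.5e-06, and the death effector Bax had a log2 fold change of 0.89 ± 0.21. Cdkn2c, p18, and the death receptor Eda2r had 3.22 ± 0.48 and 3.05 ± 0.63. These 5 were higher in every injured library. Cdkn1c, p57, was lower at 42.0, 43.6 and 52.0 CPM in the sham libraries and 17.6, 38.1 and 17.4 CPM in the injured libraries, a log2 fold change of -0.91 ± 0.30, adjusted p = 0.021, with injured replicate 2 nearest to the sham libraries, and the p53 target Zmat3 was lower by -0.54 ± 0.16 (adjusted p = 0.01). Cdkn1c lost its call without sham replicate 3, injured replicate 1 or 3 or both doubted libraries (adjusted p = 0.075 to 0.13). Zmat3 lost its call without sham replicate 2 or injured replicate 1 (adjusted p = 0.054 to 0.08). Eda2r had a log2 fold change of 4.02 without sham replicate 3.

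Of 27 tested genes of glycolysis and hypoxia, 7 were called higher (25.9%) and 4 lower (14.8%), shares near the 19.5% and 16.0% of all genes, and the median was 0.01, that of all genes. Both hexokinases with a called difference rose: Hk2 stood at 5.97, 4.84 and 6.29 CPM in the sham libraries and 45.6, 36.9 and 36.0 CPM in the injured libraries, a log2 fold change of 2.79 ± 0.35, adjusted p = 1.7e-06, and Hk3, of myeloid cells, at 2.77, 2.54 and 1.78 CPM in the sham libraries and 52.9, 31.9 and 28.4 CPM in the injured libraries, a log2 fold change of 4.00 ± 0.50, adjusted p = 1.7e-06; the main brain isoenzyme Hk1 (-0.20 ± 0.14) was not called. Among lactate dehydrogenases, Ldha stood at 93.6, 113 and 109.7 CPM in the sham libraries and 317, 285 and 322 CPM in the injured libraries, a log2 fold change of 1.55 ± 0.25, adjusted p = 4.1e-05, and Ldhb at 562, 545 and 576 CPM in the sham libraries and 335, 409.7 and 403 CPM in the injured libraries, a log2 fold change of -0.55 ± 0.16, adjusted p = 0.0092. The 2 subunits thus moved in opposite directions, each without overlap. The lactate exporter Slc16a3 stood at 3.34, 2.22 and 2.39 CPM in the sham libraries and 39.0, 27.5 and 26.6 CPM in the injured libraries, a log2 fold change of 3.54 ± 0.46, adjusted p = 2.9e-06, and Slc16a1 had a log2 fold change of 0.71 ± 0.15. The neuronal enolase Eno2 stood at 963, 1059 and 1074 CPM in the sham libraries and 519, 585 and 568 CPM in the injured libraries, a log2 fold change of -0.89 ± 0.24, adjusted p = 0.0052. The neuronal glucose transporter Slc2a3 and Bnip3 were lower by -0.66 ± 0.18 and -0.47 ± 0.13. Called on the lower side were 2 genes without injured replicate 1 and 7 in a fit of the 6 libraries alone. Vegfa, a textbook hypoxia target, was not called (119.6, 120.3 and 142 CPM in the sham libraries and 83.9, 134 and 96.8 CPM in the injured libraries, a log2 fold change of -0.28 ± 0.24, adjusted p = 0.39). Ldhb lost its call without injured replicate 1 (adjusted p = 0.078). Bnip3 lost its call without injured replicate 1 or 3 or both doubted libraries (adjusted p = 0.064 to 0.1).

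Nuclear genes of oxidative phosphorylation were lower by small amounts: 13 of 27 were called lower, none higher, and the median was -0.32. Sdha, of complex II, stood at 576, 574 and 585 CPM in the sham libraries and 408, 456 and 428 CPM in the injured libraries, a log2 fold change of -0.43 ± 0.10, adjusted p = 0.0023, and Cycs, cytochrome c, at 101, 100.4 and 99.2 CPM in the sham libraries and 73.2, 67.8 and 72.0 CPM in the injured libraries, a log2 fold change of -0.50 ± 0.10, adjusted p = 0.0007. The groups did not overlap for either. The count called lower was 5 without the filter on low counts, 8, 4 and 5 without sham replicates 1, 2 and 3, and 3 without either injured replicate 1 or injured replicate 3.

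Metallothioneins, which bind zinc and copper, were all called higher. Mt2 stood at 72.3, 84.9 and 82.8 CPM in the sham libraries and 425, 276 and 335 CPM in the injured libraries, a log2 fold change of 2.11 ± 0.36, adjusted p = 9e-05, Mt1 at 163, 156 and 163 CPM in the sham libraries and 537, 431 and 438 CPM in the injured libraries, a log2 fold change of 1.54 ± 0.33, adjusted p = 0.00088, and Mt3, the brain form, had a log2 fold change of 0.91 ± 0.28 (adjusted p = 0.014). The groups did not overlap for Mt2 or Mt1. Of 21 tested metallothionein, zinc transport and antioxidant genes, 10 were called higher and 1 lower. Prdx6 stood at 235, 232 and 201 CPM in the sham libraries and 768, 593 and 658 CPM in the injured libraries, a log2 fold change of 1.59 ± 0.24, adjusted p = 1.8e-05, and the glutathione peroxidase Gpx1 had a log2 fold change of 1.44 ± 0.30. The mitochondrial superoxide dismutase Sod2 was lower, at 191, 199 and 195 CPM in the sham libraries and 108, 126 and 119 CPM in the injured libraries, a log2 fold change of -0.73 ± 0.15, adjusted p = 0.00074. Mt2 and Mt1 lie next to each other on chromosome 8, and their promoters are shown because both genes rose and metal response elements are their known control sequence. The core of that element was searched as TGCGCNC or TGCACNC on both strands. Matches were present for all 3 metallothionein genes and for 28.2% of all genes with a window. They were also present for 59.1% of the DNA replication genes with a window, 45.5% of the mitosis genes and 57.7% of those of glycolysis and hypoxia. The windows of Mt2 (chr8:94172368-94172667, plus strand) and Mt1 (chr8:94178839-94179138, plus strand), from RefSeq for GRCm38.p6 with the same limits as above, hold 4 and 3 matches, in capitals. Mt3 lost its call without both doubted libraries (adjusted p = 0.06).
Mt2: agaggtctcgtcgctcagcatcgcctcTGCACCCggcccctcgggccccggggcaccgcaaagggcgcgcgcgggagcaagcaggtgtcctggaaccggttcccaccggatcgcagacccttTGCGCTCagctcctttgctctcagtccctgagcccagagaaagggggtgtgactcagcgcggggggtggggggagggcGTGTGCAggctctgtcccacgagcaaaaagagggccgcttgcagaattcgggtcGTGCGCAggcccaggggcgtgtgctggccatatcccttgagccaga
Mt1: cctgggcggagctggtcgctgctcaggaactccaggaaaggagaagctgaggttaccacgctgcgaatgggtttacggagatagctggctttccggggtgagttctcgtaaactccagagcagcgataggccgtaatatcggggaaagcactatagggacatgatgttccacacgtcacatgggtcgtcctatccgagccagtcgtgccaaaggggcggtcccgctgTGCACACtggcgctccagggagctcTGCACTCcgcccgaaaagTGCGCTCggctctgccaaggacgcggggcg

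Ribosomal protein genes were higher by less than 2-fold in most cases, with 26 of 31 called higher, none lower, and a median of 0.60. Rps2 stood at 201, 206 and 196 CPM in the sham libraries and 524, 356 and 477 CPM in the injured libraries, a log2 fold change of 1.17 ± 0.18, adjusted p = 3.3e-05, and Rps18 at 93.5, 89.7 and 102 CPM in the sham libraries and 213, 158 and 181 CPM in the injured libraries, a log2 fold change of 0.95 ± 0.20, adjusted p = 0.00086. The injured libraries lay above the sham ones in both, with injured replicate 2 lowest. Rpl10a, Rplp0 and Rpl7 had log2 fold changes of 0.88 ± 0.22, 1.27 ± 0.32 and 0.70 ± 0.18. Processed copies of these genes are many and the treatment of reads that match several genes is not given in the sources used here, so single values are uncertain. The count was 17 without sham replicate 1, 11 without injured replicate 1 and 8 without both doubted libraries.

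Stress and signal-response lists were mixed. Of 21 tested unfolded protein response and ATF4 genes, 11 were called higher and 2 lower. Edem1, which sends misfolded proteins to degradation, stood at 34.0, 37.9 and 38.6 CPM in the sham libraries and 100.1, 85.8 and 90.2 CPM in the injured libraries, a log2 fold change of 1.32 ± 0.20, adjusted p = 1.8e-05. The endoplasmic reticulum proteins Pdia4, Creld2 and Sdf2l1 had log2 fold changes of 0.99 ± 0.21, 1.07 ± 0.26 and 1.12 ± 0.29. Herpud1 and Asns, targets of the same response, were lower by -0.37 ± 0.10 and -0.72 ± 0.22. Without injured replicate 1, 6 of this list were called higher, and without both doubted libraries 7. Of 24 tested immediate early genes, 9 were called higher and 2 lower. Myc stood at 2.20, 1.82 and 2.80 CPM in the sham libraries and 15.3, 9.98 and 12.9 CPM in the injured libraries, a log2 fold change of 2.47 ± 0.30, adjusted p = 1.4e-06. Jun, Fosl2 and the phosphatase Dusp6 had log2 fold changes of 0.84 ± 0.14, 1.39 ± 0.24 and 1.26 ± 0.24, while Fos was not called (16.3, 20.2 and 24.1 CPM in the sham libraries and 35.8, 24.8 and 38.0 CPM in the injured libraries, a log2 fold change of 0.70 ± 0.28, adjusted p = 0.052). The activity-regulated Egr3 and Egr4 were lower by -1.42 ± 0.55 and -1.95 ± 0.62. Without both doubted libraries 5 immediate early genes were called higher. Of 14 tested clock genes none was called higher and 4 were called lower, Hlf (68.3, 77.4 and 76.8 CPM in sham cords against 37.0, 47.2 and 39.9 CPM in injured cords; log2 fold change of -0.84 ± 0.22, adjusted p = 0.0043), Nr1d2 (-0.72 ± 0.16), Nr1d1 (-0.37 ± 0.12) and Cry2 (-0.54 ± 0.19). Of 12 tested glucocorticoid-responsive genes, 3 were called, all higher: Cdkn1a (above), Nfkbia (0.99 ± 0.28, with overlapping groups) and Plin4 (1.66 ± 0.66), which is near the 19.5% of all genes. Asns and Nfkbia lost their calls without injured replicate 1 (adjusted p = 0.054 to 0.12). Egr3 lost its call without sham replicate 2 or 3 or injured replicate 1, 2 or 3 (adjusted p = 0.053 to 0.3). Egr4 lost its call without injured replicate 1 or 2 (adjusted p = 0.059 to 0.09). Nr1d1 lost its call without sham replicate 1 or 2, injured replicate 1 or 3 or both doubted libraries (adjusted p = 0.059 to 0.13). Cry2 and Plin4 lost their calls without sham replicate 1, 2 or 3, injured replicate 1 or 3 or both doubted libraries (adjusted p = 0.055 to 0.2). Egr3 and Plin4 were not called without the filter on low counts (adjusted p = 0.064 and 0.052). Egr3 was not called in a fit of these 6 libraries alone (adjusted p = 0.07). Fos was called in DESeq2, in a fit of these 6 libraries alone, without injured replicate 2 and without sham replicate 3 (adjusted p = 0.015 to 0.0496).

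Of 32 tested potassium channel genes, 17 were called lower and 2 higher, with a median of -0.73. Kcna1 and Kcna2, the channels beside the nodes of Ranvier, stood at 794, 724 and 721 CPM in the sham libraries and 305, 402 and 307 CPM in the injured libraries (log2 fold change of -1.14 ± 0.25, adjusted p = 0.0011) and at 834, 783 and 746 CPM in the sham libraries and 278, 406 and 386 CPM in the injured libraries (log2 fold change of -1.14 ± 0.25, adjusted p = 0.0011). In both genes injured replicate 1 had the lowest level and no injured library reached a sham library. The 2 channels called higher were Kcnn4, the calcium-activated channel of microglia and lymphocytes (0.995, 1.03 and 0.615 CPM in sham cords against 11.5, 7.99 and 10.2 CPM in injured cords; log2 fold change of 3.48 ± 0.56, adjusted p = 3.9e-05), and the leak channel Kcnk6 (4.33, 3.33 and 2.46 CPM in sham cords against 15.1, 11.9 and 11.7 CPM in injured cords; log2 fold change of 1.93 ± 0.30, adjusted p = 2.5e-05). The count of potassium channels called lower was 5 without injured replicate 1, 11 without injured replicate 3 and 9 without both doubted libraries.

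Of 25 tested sodium, calcium and HCN channel genes, 14 were called lower and none higher (median -0.76). Scn8a, the sodium channel of nodes and axon initial segments, stood at 527, 516 and 495 CPM in the sham libraries and 176, 261 and 219.9 CPM in the injured libraries, a log2 fold change of -1.23 ± 0.24, adjusted p = 0.00046. The auxiliary subunit Scn4b stood at 533, 495 and 497 CPM in the sham libraries and 131, 199 and 168 CPM in the injured libraries, a log2 fold change of -1.62 ± 0.36, adjusted p = 0.0013. The calcium channel genes Cacnb4, Cacna2d3 and Cacna1g had log2 fold changes of -0.88 ± 0.19, -1.10 ± 0.27 and -0.83 ± 0.21. None of the 4 tested HCN genes, which encode pacemaker channels, was called. Among them were Hcn2, Hcn3 and Hcn4, with log2 fold changes of -0.36, -0.21 and -1.06. Without injured replicate 1, 8 genes of this list were called lower. Hcn2 was called in a fit of these 6 libraries alone (adjusted p = 0.0068). Hcn4 was called in a fit of these 6 libraries alone and with a term for high Xist (adjusted p = 0.0013 to 0.045).

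**Figure D4:**
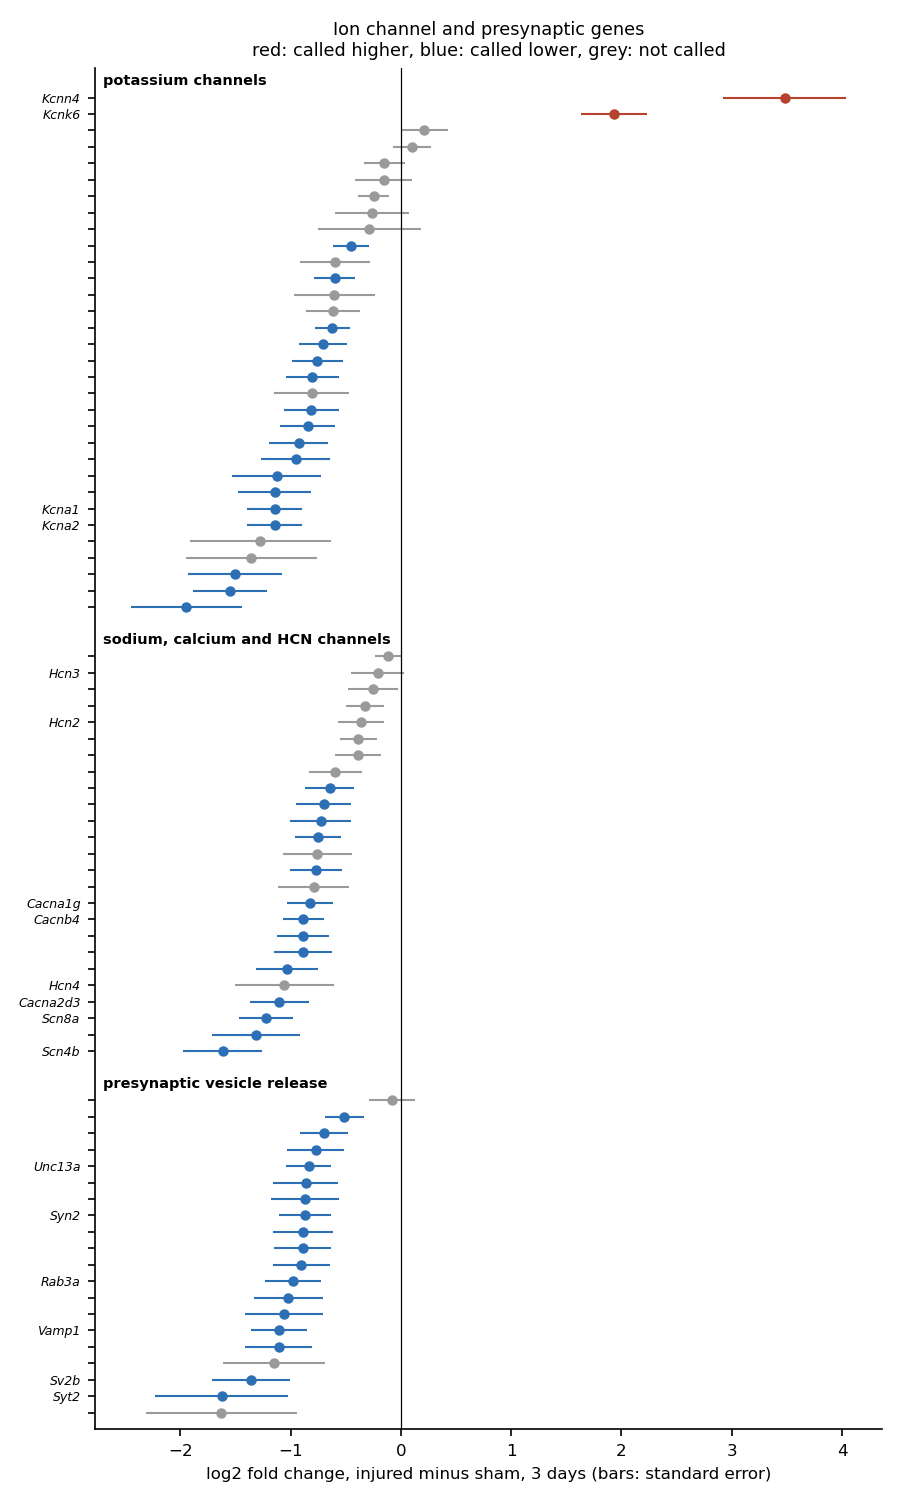
Log2 fold change, injured over sham at 3 days, of tested ion channel and synaptic vesicle genes (points, with the genes named in the text labelled; bars are 1 standard error; red was called higher, blue lower and grey not called). Nearly all lie left of 0; the exceptions called to the right are the potassium channels Kcnn4 and Kcnk6.

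Chloride handling sets whether GABA and glycine inhibit, and here the exporter was lower while the importer did not pass the test. Slc12a5, the neuronal exporter KCC2, stood at 715, 831 and 821 CPM in the sham libraries and 299.6, 422 and 383 CPM in the injured libraries, a log2 fold change of -1.10 ± 0.30, adjusted p = 0.0063. Slc12a2, the importer NKCC1, stood at 376, 381 and 368 CPM in the sham libraries and 324, 386 and 341 CPM in the injured libraries, a log2 fold change of -0.10 ± 0.14, adjusted p = 0.61. No injured library reached a sham library for Slc12a5. The bicarbonate transporter Slc4a10 was lower (-0.70 ± 0.25) and Slc12a7, the exporter KCC4, higher (1.06 ± 0.33). Slc12a5, Slc4a10 and Slc12a7 were the only called genes of 8 tested. These shares, 12.5% higher and 25% lower, were near the 19.5% and 16.0% of all genes. Slc12a5 lost its call without injured replicate 1 (adjusted p = 0.053). Slc4a10 lost its call without sham replicate 2 or 3, injured replicate 1, 2 or 3 or both doubted libraries (adjusted p = 0.063 to 0.11). Slc12a7 lost its call without sham replicate 3, injured replicate 1 or both doubted libraries (adjusted p = 0.064 to 0.1).

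The machinery of vesicle release was lower in 17 of 20 tested genes and higher in none (median -0.90). Vamp1, the vesicle SNARE of the spinal cord, stood at 1448, 1392 and 1460.4 CPM in the sham libraries and 543, 773 and 683 CPM in the injured libraries, a log2 fold change of -1.11 ± 0.25, adjusted p = 0.0017. Unc13a, which primes vesicles, stood at 196, 200.4 and 191 CPM in the sham libraries and 99.0, 113 and 117 CPM in the injured libraries, a log2 fold change of -0.84 ± 0.20, adjusted p = 0.0028. Both were below every sham library. Rab3a, Sv2b and Syn2 had log2 fold changes of -0.98 ± 0.25, -1.36 ± 0.36 and -0.87 ± 0.24. The count was 11 without sham replicate 2, 5 without injured replicate 1, 10 without injured replicate 3 and 9 without both doubted libraries. The summed neuron markers were lower in every injured library, and their part in the channel and vesicle differences was not tested. Syn2 lost its call without injured replicate 1 (adjusted p = 0.052).

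Of 22 tested neuropeptide and granin genes, 7 were called lower and 1 higher. The granins that fill dense-core vesicles were among the lower genes: Chga stood at 330.4, 298 and 339 CPM in the sham libraries and 141, 181 and 143 CPM in the injured libraries, a log2 fold change of -1.06 ± 0.26, adjusted p = 0.0027, and Chgb had a log2 fold change of -1.04 ± 0.22. The 1 peptide called higher was Crh, corticotropin-releasing hormone (2.77, 1.75 and 1.30 CPM in sham cords against 7.17, 2.43 and 5.54 CPM in injured cords; log2 fold change of 1.37 ± 0.52, adjusted p = 0.042), for which the groups overlapped. Of 11 tested motor neuron genes, 6 were called lower and none higher. The choline transporter Slc5a7 stood at 111, 103 and 120.4 CPM in the sham libraries and 38.3, 67.8 and 24.6 CPM in the injured libraries, a log2 fold change of -1.35 ± 0.37, adjusted p = 0.0068, and Chat, which makes acetylcholine, at 34.7, 35.5 and 40.6 CPM in the sham libraries and 14.5, 24.5 and 11.4 CPM in the injured libraries, a log2 fold change of -1.13 ± 0.33, adjusted p = 0.011. In both genes injured replicate 2 lay nearest to the sham libraries and injured replicate 3 lowest. The neurofilament genes Nefh, Nefl and Nefm had log2 fold changes of -1.19 ± 0.30, -1.10 ± 0.28 and -0.93 ± 0.26. The count of motor neuron genes called lower was 2 without injured replicate 3 and 1 without both doubted libraries, and that of neuropeptides was 3 without sham replicate 2, 4 without sham replicate 3, 4 without injured replicate 2 and 3 without injured replicate 3. Crh lost its call without sham replicate 2 or 3, injured replicate 1 or 3 or both doubted libraries (adjusted p = 0.072 to 0.19). Slc5a7 lost its call without injured replicate 3 or both doubted libraries (adjusted p = 0.056 to 0.079). Chat lost its call without injured replicate 1 or 3 or both doubted libraries (adjusted p = 0.062 to 0.087).

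Hox genes, whose combination marks the level of the cord, were lower in 8 of 20 and higher in none. Hoxa9 stood at 39.7, 40.3 and 39.0 CPM in the sham libraries and 21.7, 26.7 and 22.3 CPM in the injured libraries, a log2 fold change of -0.75 ± 0.14, adjusted p = 0.00027, and Hoxa7 at 38.1, 37.3 and 36.4 CPM in the sham libraries and 20.5, 22.3 and 22.9 CPM in the injured libraries, a log2 fold change of -0.77 ± 0.17, adjusted p = 0.0012. Both separated the groups. Hoxb6, Hoxb5 and Hoxb9 had log2 fold changes of -0.87 ± 0.23, -0.84 ± 0.24 and -0.87 ± 0.26. Called genes were 3 of 8 among the anterior members and 5 of 12 among the posterior members. The count was 4 without either injured replicate 1 or injured replicate 3, and 13 in a fit of the 6 libraries alone. Hoxb5 lost its call without injured replicate 1 (adjusted p = 0.056). Hoxb9 lost its call without injured replicate 3 or both doubted libraries (adjusted p = 0.054 to 0.07).

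Of 15 tested genes of astrocyte homeostasis, 2 were called higher and 2 lower, a share near the background. The water channel Aqp4 stood at 792, 621 and 558 CPM in the sham libraries and 1280.2, 1345 and 1146 CPM in the injured libraries, a log2 fold change of 0.94 ± 0.23, adjusted p = 0.003, and the gap junction gene Gja1 had a log2 fold change of 0.51 ± 0.15. The proteoglycan Gpc5 was lower, with a log2 fold change of -0.85 ± 0.25. Slc1a2, the main glutamate transporter, was not called (2925, 3248 and 2793 CPM in the sham libraries and 1698, 2664 and 2396 CPM in the injured libraries, a log2 fold change of -0.41 ± 0.26, adjusted p = 0.23). Of 13 tested myelin sheath genes, Opalin (47.0, 42.2 and 43.1 CPM in sham cords against 17.7, 33.7 and 24.2 CPM in injured cords; log2 fold change of -0.80 ± 0.20, adjusted p = 0.0037) and Fa2h (-0.50 ± 0.19) were called lower and the tight junction gene Cldn11 (0.47 ± 0.17) higher. Mbp, myelin basic protein, was not called (16054, 14244 and 17068 CPM in the sham libraries and 13606, 20884 and 11064 CPM in the injured libraries, a log2 fold change of -0.06 ± 0.26, adjusted p = 0.89). Of 13 tested oligodendrocyte lineage genes, 3 were called, all higher, a share (23.1%) near the 19.5% of all genes: Vcan, a proteoglycan of scars, stood at 43.5, 45.9 and 46.2 CPM in the sham libraries and 121, 106 and 109 CPM in the injured libraries, a log2 fold change of 1.31 ± 0.25, adjusted p = 0.0003, and Cspg4 (NG2) and Pdgfra had log2 fold changes of 1.07 ± 0.21 and 0.76 ± 0.20. In a fit of the 6 libraries alone 5 lineage genes were called higher, and without injured replicate 2 4 myelin genes were called lower. With all libraries 15.4% of the myelin sheath genes were called lower and 7.69% higher, against 16.0% and 19.5% of all genes. The 5 oligodendrocyte markers summed to 24896 to 29755 CPM in sham and 18679 to 35043 CPM in injured cords, with injured replicate 3 lowest and injured replicate 2 highest. Gja1 and Pdgfra lost their calls without both doubted libraries (adjusted p = 0.067 to 0.12). Gpc5 lost its call without injured replicate 1 or 3 or both doubted libraries (adjusted p = 0.055 to 0.082). Fa2h lost its call without sham replicate 1, 2 or 3, injured replicate 1 or 3 or both doubted libraries (adjusted p = 0.067 to 0.24). Cldn11 lost its call without sham replicate 2 or injured replicate 1 or 2 (adjusted p = 0.089 to 0.11). Fa2h was not called without the filter on low counts (adjusted p = 0.06).

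Vessel genes were higher in 10 of 25 tested and lower in none. Tie1, an endothelial receptor, stood at 22.3, 18.0 and 19.3 CPM in the sham libraries and 63.5, 38.2 and 44.3 CPM in the injured libraries, a log2 fold change of 1.29 ± 0.23, adjusted p = 0.00015, and Angpt2, which loosens vessels, at 1.63, 1.75 and 0.957 CPM in the sham libraries and 8.61, 4.62 and 5.85 CPM in the injured libraries, a log2 fold change of 2.13 ± 0.59, adjusted p = 0.0065. The junction genes Cldn5 (64.9, 52.4 and 62.1 CPM in sham cords against 135, 118 and 115 CPM in injured cords; log2 fold change of 1.04 ± 0.30, adjusted p = 0.0084) and Tjp1 (0.67 ± 0.14) were higher as well. The count was 5 without sham replicate 2 and 6 without injured replicate 1.

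Among guidance genes, most of those called were receptors. Of 24 tested semaphorins, plexins and neuropilins, 6 were called higher (25%) and 1 lower (4.17%), against 19.5% and 16.0% of all genes. The median was -0.04. Plxnd1 stood at 20.8, 18.2 and 26.0 CPM in the sham libraries and 126, 77.7 and 80.1 CPM in the injured libraries, a log2 fold change of 2.12 ± 0.30, adjusted p = 8.2e-06, and Plxnb2, needed by phagocytes that gather at a lesion in mice, at 81.6, 81.0 and 74.5 CPM in the sham libraries and 232, 168 and 196 CPM in the injured libraries, a log2 fold change of 1.33 ± 0.19, adjusted p = 7.7e-06. The groups did not overlap for either. The coreceptor Nrp1 had a log2 fold change of 1.08 ± 0.24, and the neuronal Plxna4 was lower by -0.71 ± 0.24. Among genes for myelin inhibitors and their receptors, 1 of 10 was called higher, Lilrb3, a leukocyte receptor that also binds them (3.41 ± 0.45), and Lingo1 (-0.91 ± 0.25) and Ptprs (-0.24 ± 0.09) were called lower. None of the 3 ligands in the list was called. The shares called of this list were 10% higher and 20% lower, against 19.5% and 16.0% of all genes. Without both doubted libraries 3 guidance genes were called higher. Plxna4 lost its call without sham replicate 2, injured replicate 1 or 3 or both doubted libraries (adjusted p = 0.065 to 0.11). Lingo1 lost its call without injured replicate 1 (adjusted p = 0.055). Ptprs lost its call without sham replicate 1, 2 or 3, injured replicate 1, 2 or 3 or both doubted libraries (adjusted p = 0.073 to 0.2). Ptprs was not called with DESeq2's size factors in place of TMM (adjusted p = 0.057). Ptprs was not called without the filter on low counts (adjusted p = 0.13).

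Of 38 tested Wnt pathway genes, 8 were called higher and 4 lower, counts near the background. Extracellular antagonists went both ways: Dkk3 stood at 144, 139 and 158 CPM in the sham libraries and 74.5, 81.7 and 74.7 CPM in the injured libraries, a log2 fold change of -0.93 ± 0.13, adjusted p = 8.3e-06, Sfrp1 had a log2 fold change of -1.01 ± 0.24, and Wif1 stood at 0.284, 0.0793 and 0.0684 CPM in the sham libraries and 5.13, 0.749 and 8.85 CPM in the injured libraries, a log2 fold change of 5.00 ± 1.11, adjusted p = 0.0012. Injured replicate 2 was the lowest injured library of Wif1. The coreceptor Lrp5 and the membrane inhibitor Apcdd1 were higher, by 1.06 ± 0.16 and 0.89 ± 0.13, and the agonist Rspo2 and the receptor Fzd9 were lower, by -1.29 ± 0.27 and -0.71 ± 0.24, with overlapping groups for Fzd9. The count called higher was 5 without sham replicate 3 and 4 without injured replicate 1. Fzd9 lost its call without sham replicate 1 or 3, injured replicate 1 or 3 or both doubted libraries (adjusted p = 0.06 to 0.15). Wif1 had a log2 fold change of 4.27 without injured replicate 3. Without sham replicate 1 the other sham libraries held 3 or fewer counts of Wif1, so no fold is given.

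Of 9 tested long noncoding RNAs, Neat1, the scaffold of paraspeckles, was higher, at 550.2, 536 and 387 CPM in the sham libraries and 1107, 1074 and 1683 CPM in the injured libraries, a log2 fold change of 1.39 ± 0.32, adjusted p = 0.0019, and the imprinted Rian was lower (-0.53 ± 0.19, adjusted p = 0.033). Injured replicate 3 held the highest level of Neat1. The shares called of this list, 11.1% higher and 11.1% lower, lay below the 19.5% and 16.0% of all genes. Rian lost its call without sham replicate 2 or 3, injured replicate 1, 2 or 3 or both doubted libraries (adjusted p = 0.053 to 0.13). Rian was not called without the filter on low counts (adjusted p = 0.056).

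To ask which of these differences belong to the early stage, the injury response at 3 days was set against that at 35 days, where 4 injured control and 3 sham libraries served and no library was shared. At 35 days 36.8% of genes were called, and 3858 genes were called in the same direction at both times. The difference between the 2 responses was called for 59 genes, 0.362% of those tested, 30 more positive (0.184%) and 29 more negative (0.178%) at 3 days. The count was 12 without sham replicate 1 of 35 days, 99 without injured replicate 1 of 35 days and between these without each of the other 11 libraries, and it was 3 without both doubted libraries. Injured replicate 4 of 35 days, which is not among the doubted libraries, also held both Xist (676 CPM) and Ddx3y (32.1 CPM). Without that library the count was 45.

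The genes named as more positive at 3 days include a heme gene, genes of division and matrix genes. Hmox1 had an injury log2 fold change of 5.22 ± 0.50 at 3 days and of 2.11 ± 0.46 at 35 days, where it stood at 4.54, 6.70 and 4.43 CPM in the sham libraries and 26.7, 18.3, 18.9 and 26.6 CPM in the injured ones; the difference was 3.10 ± 0.64 (adjusted p = 0.024). Spp1, osteopontin, had 4.71 ± 0.42 and 1.98 ± 0.36 (difference 2.72 ± 0.50, adjusted p = 0.017). Tpx2 had 3.55 ± 0.36 and 1.21 ± 0.35 (difference 2.34 ± 0.49, adjusted p = 0.03), and the cytokinesis gene Racgap1 0.94 ± 0.21 and -0.47 ± 0.20 (difference 1.41 ± 0.29, adjusted p = 0.027). Ncan, the scar proteoglycan neurocan, had 1.22 ± 0.20 and -0.19 ± 0.18 (difference 1.41 ± 0.27, adjusted p = 0.021), and the matrix protein Emilin2 0.97 ± 0.18 and -0.33 ± 0.17 (difference 1.30 ± 0.25, adjusted p = 0.022). In all 6 the response at 3 days exceeded that at 35 days. Of the replication list 5 of 27 genes were called in this difference: Mcm5 (2.59 ± 0.44), Mcm10 (2.39 ± 0.48), Pole (2.12 ± 0.35), Prim1 (1.26 ± 0.27) and Tyms (1.92 ± 0.43), all more positive at 3 days. The list's median injury response was 1.33 at 3 days and 0.37 at 35 days, and that of the mitosis list was 3.42 and 1.51. Of the mitosis list only 1 of 27 genes was called in this difference.

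The 6 genes named in the other direction, most of which meningeal and other fibroblasts are known to express, each had a more negative response at 3 days than at 35 days. Fmod, the collagen-binding fibromodulin, had 0.13 ± 0.33 at 3 days and 3.97 ± 0.37 at 35 days (difference -3.85 ± 0.48, adjusted p = 0.00026). Slc47a1, an organic cation exporter, had -1.18 ± 0.91 and 5.92 ± 1.10 (difference -7.10 ± 1.42, adjusted p = 0.023), and Igf2 3.59 ± 0.64 at 35 days (difference -4.33 ± 0.86, adjusted p = 0.023). The complement inhibitor Serping1 had 1.44 ± 0.43 and 4.74 ± 0.49 (difference -3.31 ± 0.63, adjusted p = 0.021). Ptgds was lower at 3 days and had 1.39 ± 0.39 at 35 days (difference -2.82 ± 0.56, adjusted p = 0.023), and Apoe, not called at 3 days, had 2.95 ± 0.34 at 35 days (difference -2.16 ± 0.46, adjusted p = 0.031). The 6 meningeal fibroblast markers, which include Igf2, summed to 556 to 601 CPM in the sham and 689 to 2164 CPM in the injured libraries of 35 days, and their part in these differences was not tested. Injured replicate 4 of 35 days held the highest of these sums, and the other injured libraries of 35 days reached at most 965 CPM. Without injured replicate 4 of 35 days the difference of Igf2 was -3.22. Of the 17 genes named for this difference, Fmod, Spp1, Mcm5 and Pole were called without each of the 13 libraries in turn. The other 13 all lost their call without sham replicate 1 of 35 days, and the highest adjusted p that 1 library's absence gave them was 0.059 to 0.17. In a fit of the compared groups alone 9 of the 17 lost their call, among them Emilin2 (adjusted p = 0.088) and Slc47a1 (adjusted p = 0.12), and 5 did with a term for high Xist. Without both doubted libraries 15 of the 17 lost their call, and Fmod and Emilin2 kept it (adjusted p = 0.011 and 0.028).

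**Figure D5:**
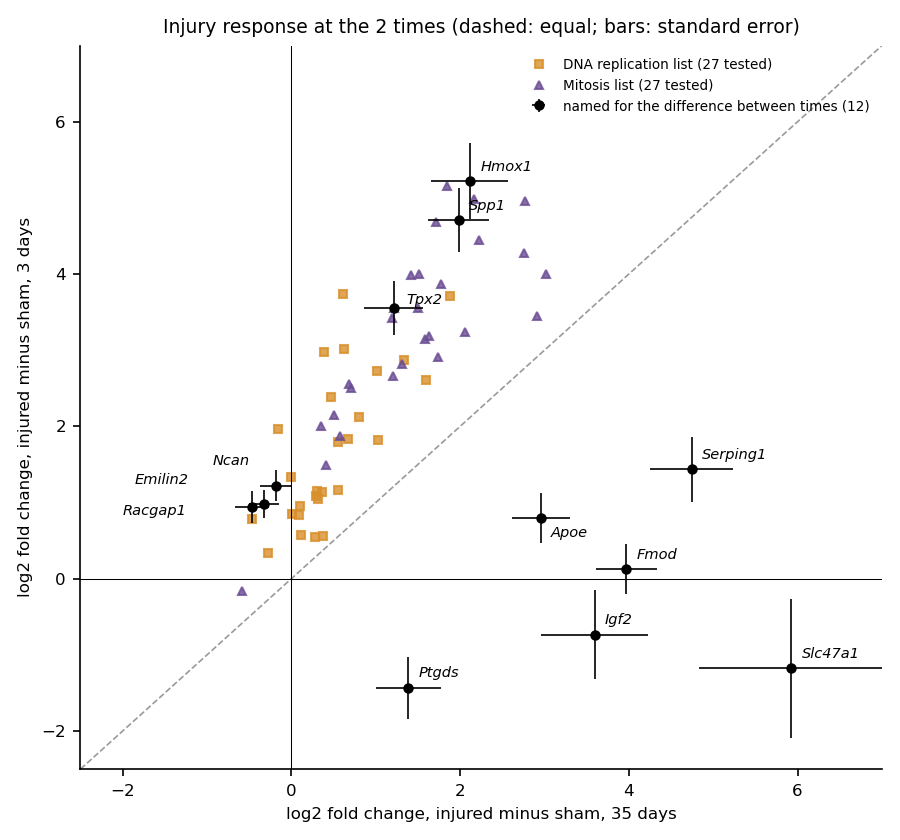
Log2 fold change of injured over sham cords at 3 days (y) against that at 35 days (x) for the 27 DNA replication genes (squares), the 27 mitosis genes (triangles) and the 12 genes named by size of difference at a mean of at least 10 CPM (black, with 1 standard error); the dashed line marks equal responses. Hmox1 and Spp1 lie above the line, Fmod and Slc47a1 below it.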

How the data were processed

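Bulk RNA-seq of cord segments was compared between 3 sham and 3 injured control libraries at 3 days. The authors deposited raw counts of reads per gene symbol, without normalization. HISAT2, SAMtools, HTSeq and DESeq2 are listed in the submitters' processing notes, along with mm10 and GRCm38, but neither their versions nor their roles. The gene annotation, the strand setting and the handling of reads with several matches are likewise unknown from the sources at hand, so overlapping, antisense and near-identical genes are uncertain. All 32 libraries entered 1 model of 10 groups without covariates in edgeR 4.0.16 (R 4.3.3, limma 3.58.1), with TMM scaling, filterByExpr (minimum of 10 counts in enough libraries and of 15 in total) and the quasi-likelihood F test, adjusted by Benjamini-Hochberg over the 16314 of 23420 genes that passed. The fit left 22 residual degrees of freedom, and the common coefficient of variation was 20.8%. CPM values were computed on TMM-scaled totals. The ratio given for a gene with 1 to 3 counts in the sham group has an exact interval at the 95% level, which covers counting error only.

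The members and gene lists were chosen with earlier results of these data known. Some items that these rules choose are not reported here. Named are the 10 largest rises and falls in mean CPM, and the 10 largest by log2 fold change at a mean of at least 10 CPM. Both were taken among called genes whose groups did not overlap. Up to 5 members of smallest p per list follow, with members called against the list's direction. Whole roles are named where a role is described gene by gene. The last are the 6 largest called differences each way between the times, at a mean of at least 10 CPM over the 13 libraries. Members that were not called, and a few others named beside them, were chosen after their values were seen. The alternatives were DESeq2's size factors, DESeq2 1.42.0, no filter, a fit of the compared groups alone, a replicate block, a term for high Xist, each library left out in turn, and both doubted libraries left out. The fitting script was tested on simulated counts. Promoter windows are those of RefSeq for GRCm38.p6.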

Additional observations from a re-analysis of the deposited data

Results flagged for a closer look

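The injury response at 3 days differed from that at 35 days, by a test of the difference itself (the interaction term of edgeR's quasi-likelihood fit, adjusted p under 0.05), for 17 genes named above. Each value is the log2 fold change of injured over sham cords at 3 days minus that at 35 days, so a positive value is a more positive response at 3 days.

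Among genes of DNA replication, the difference was 2.59 for Mcm5, 2.39 for Mcm10, 2.12 for Pole, 1.92 for Tyms and 1.26 for Prim1. Among genes of mitosis and cytokinesis it was 2.34 for Tpx2 and 1.41 for Racgap1. The remaining positive differences were those of the heme oxygenase Hmox1 (3.10), osteopontin Spp1 (2.72), the proteoglycan gene Ncan (1.41) and the matrix gene Emilin2 (1.30).

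The negative differences were -7.10 for the cation exporter Slc47a1, -4.33 for the growth factor Igf2, -3.85 for the matrix gene Fmod, -3.31 for the complement inhibitor Serping1, -2.82 for the prostaglandin synthase Ptgds and -2.16 for the lipid carrier Apoe.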

How the results depend on the processing

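At 3 days 5788 genes were called, 3174 higher and 2614 lower. The counts were 3530 to 5462 in all, 2468 to 3080 higher and 1062 to 2382 lower when 1 library was left out, and genes called lower by at least 2-fold were 197 to 547, against 451 with all libraries. Without both doubted libraries 3661 genes were called, 1334 of them lower. DESeq2, its size factors, no filter, a fit of the 6 libraries alone, a term for high Xist and a replicate block each left all these counts within 1.5 times. The labels do not say that same-numbered replicates share an animal, litter or day. The correlations of same-numbered deviations at 3 days were 0.13, -0.06 and -0.11, too few values to exclude such a pairing. The replicate block gave 6635 calls at 3 days and 43 for the difference between times.

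Genes whose response differed between times, 59 as reported, numbered 226 with DESeq2 (110 more positive and 116 more negative), 32 in a fit of the compared groups alone (9 more negative), 28 with a term for high Xist (15 and 13) and 3 without both doubted libraries (2 and 1). Leaving out 1 library gave 12 to 99 in all, 7 to 42 more positive and 4 to 57 more negative. The cause of these changes in number was not tested.

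Of the 312 genes named at 3 days, 282 were called, 231 of them under every one of the 13 alternatives, and none of the 282 changed sign. Called genes that lost their call numbered 39 without injured replicate 1, 38 without both doubted libraries, 30 without injured replicate 3, 22, 18 and 13 without sham replicates 2, 3 and 1, 10 without the filter, 9 without injured replicate 2, 5 with the block, 3 with DESeq2's size factors and 1 in a fit of the 6 libraries alone. Of the 30 named genes not called, 14 were called with the block, 10 in a fit of the 6 libraries alone and 5 with DESeq2. Of the 17 genes named for the difference between times, 9 lost their call in a fit of the compared groups alone, 5 with a term for high Xist and 4 with the block. Of 94 counts over gene lists, 47 stayed within 1.5 times under every alternative. Among the genes not called, 4 changed sign with 1 library left out: Fmod ranged from -0.13 to 0.34 on the log2 scale, Mbp from -0.36 to 0.14, Nos2 from -0.0074 to 1.11 and Tlr5 from -0.28 to 0.34. Without both doubted libraries Mbp stood at 0.14.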
